A study of Mus musculus with 6 samples.

Results

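Inhibitory checkpoint pairs are ligand and receptor couples in which a protein on neurons or on other cells holds back a receptor-bearing myeloid cell. The genes described here are 6 members of such couples, Cd200 and Cd200r1, Cd47 and Sirpa, and the receptors Siglech and Lair1, chosen by gene symbol among the 15388 genes of the table. Of the 6, 5 had values and were examined, and Cd200r1 was not analysed here. All 5 passed the filter on low reads. RNA came from the hippocampus of Cx3cr1-Cre/Ert2+; NuTRAP+ mice given tamoxifen (Tam) daily for 5 days at about 3 months of age. In these mice Cre recombinase is driven by the Cx3cr1 promoter, which is active in microglia and also in border macrophages, and recombination switches on NuTRAP, a reporter that puts a GFP-tagged subunit on the ribosomes of the recombined cells. Each of 3 animals (numbers 201, 207 and 208) gave 1 Input library, made from cleared homogenate before pulldown, and 1 Positive library, made from ribosomes captured with an antibody to GFP (translating ribosome affinity purification, TRAP). Both fractions carried the same genotype and treatment, and no animal without Cre was included.

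CD200, a membrane glycoprotein of neurons and endothelial cells, binds the CD200 receptor of myeloid cells. CD47, an integrin-associated protein found on nearly all cells, is the "do not eat me" signal read by SIRP-alpha (Sirpa), whose cytoplasmic ITIM motifs recruit the phosphatases SHP-1 and SHP-2 when the receptor is engaged. LAIR-1 (Lair1) binds collagens and the collagen-like tail of C1q and also signals through ITIMs. By contrast Siglec-H (Siglech), a Siglec family receptor of mouse microglia and plasmacytoid dendritic cells, has no ITIM and pairs with the adaptor DAP12 (Tyrobp).

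The 6 libraries held between 14879734 and 17757918 reads. Of 15343 genes tested, 7053 (46.0%) passed an adjusted p-value of 0.05 between fractions in edgeR's quasi-likelihood test, 3684 (24.0%) higher and 3369 (22.0%) lower in Positive. Homeostatic microglial markers were higher in Positive for 10 of 10 genes, with a median log2 fold change of 4.67. Among them Tmem119, a microglial membrane protein, was at 4.63 ± 0.146 (SE). Endothelial markers were higher for 12 of 12 genes (median 1.76). All 12 border macrophage markers were also called higher, but 7 of them passed the filter on low reads (above 20 scaled reads in every library of a fraction) only through Positive, so that being tested fixed their direction. Astrocyte markers were lower for 85 of 138 genes and oligodendrocyte markers for 137 of 186. Of these, 3 astrocyte and 10 oligodendrocyte markers passed the filter only through Input. Among those that passed in both fractions, 83 of 135 astrocyte and 128 of 176 oligodendrocyte markers were lower. Of 99 neuronal markers 22 were higher and 18 lower (median -0.01). A level in bulk RNA depends on the number of cells of a type and the RNA per cell. In Positive it also depends on the yield of the capture and on untagged RNA carried over. These cannot be told apart here, and no animal without Cre was included. Neuronal markers summed to 398041 to 408495 scaled reads in Input and 359140 to 407465 in Positive. A level in Positive is not taken as that of tagged cells alone. The animals are separate mice, so the p-values rest on the spread between 3 animals per fraction. The test moderates the spread of each gene with that of the other genes, so a p-value does not rest on its own values alone. The main fit did not use that each animal gave both fractions.

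The 3 receptors with values were higher in Positive, Siglech by 26.9-fold, Lair1 by 16.3-fold and Sirpa by 2.14-fold. Of the 2 ligands, Cd200 was 1.17-fold higher and Cd47 did not pass the test. In total 4 of 5 genes were higher and 0 were lower, against 24.0% higher and 22.0% lower over all genes tested. Their median log2 fold change was 1.09, beside -0.01 over all genes tested.

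Siglech gave 211, 158 and 188 scaled reads in the Input libraries of animals 201, 207 and 208, as raw reads over the size factor of each library (scaled reads). In Positive it gave 4862, 6009 and 4103 scaled reads. Every Positive library was far above every Input library, and animal 207 had both the lowest Input and the highest Positive value. Mean levels were 186 ± 26.7 (SD, n = 3) and 4992 ± 959.6 (SD, n = 3) scaled reads, and the log2 fold change of Positive over Input was 4.75 ± 0.154 (SE; edgeR, adjusted p = 2.08e-10). Only 0.31% of the genes tested had a higher log2 fold change. The gene lies on mm10 at chr7:55768178-55778925, plus strand, as do all coordinates of genes given here. Siglech was among the genes over 5-fold higher, which made up 3.75% of all genes tested.

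Lair1 (chr7:4003402-4063204, minus strand) gave 124, 114 and 95.2 scaled reads in Input and 1794, 2177 and 1479 scaled reads in Positive, in the same order of animals. The fractions did not overlap, and as for Siglech the highest Positive value was that of animal 207. Means were 111 ± 14.5 and 1817 ± 349.6 scaled reads (SD, n = 3), and the log2 fold change was 4.03 ± 0.154 (SE; edgeR, adjusted p = 5.17e-10). Of the genes tested, 1.31% had a higher log2 fold change.

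Sirpa (chr2:129592835-129632228, plus strand), the receptor for CD47, had the highest level per kilobase of the 5 genes in either fraction. Input libraries gave 5901, 5669 and 5928 scaled reads and Positive libraries 12037, 14011 and 11317. Again the fractions were well apart in all 3 animals, with a smaller step than for the other receptors. Means were 5833 ± 142 and 12455 ± 1395 scaled reads (SD, n = 3), which gave a log2 fold change of 1.09 ± 0.093 (SE; edgeR, adjusted p = 8.23e-07). The 95% interval of that log2 fold change, 0.89 to 1.30, lay below those of Lair1 (3.69 to 4.36) and Siglech (4.42 to 5.08). Of the genes tested, 7.76% had a higher log2 fold change than Sirpa.

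Cd200 (chr16:45382135-45409053, minus strand) gave 1165, 1099 and 1136 scaled reads in Input and 1298, 1257 and 1434 in Positive. The lowest Positive library was above the highest Input library, as held in either direction for 56.5% of all genes tested, and all 3 animals were higher in Positive. Means were 1133 ± 33.0 and 1329 ± 92.6 scaled reads (SD, n = 3), which gave a log2 fold change of 0.23 ± 0.081 (SE; edgeR, adjusted p = 0.0341). The call did not hold when the Input library of animal 201, 207 or 208 or the Positive library of animal 208 was left out, with log2 fold changes of 0.25, 0.21, 0.23 and 0.17 and edgeR adjusted p-values of 0.0515, 0.120, 0.0969 and 0.0811. It was also lost with scaling to the total count (0.15, adjusted p = 0.135) and with limma on the deposited normalized values (0.21, adjusted p = 0.108).

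Cd47 (chr16:49855618-49915010, plus strand) gave 3015, 2768 and 2683 scaled reads in Input and 2460, 2844 and 2987 in Positive. The fractions overlapped, and the animals differed in sign, with Positive lower in animal 201 and higher in animals 207 and 208. Means were 2822 ± 173 and 2764 ± 272 scaled reads (SD, n = 3), which gave a log2 fold change of -0.03 ± 0.088 (SE; edgeR, adjusted p = 0.807). The 95% interval ran from -0.22 to 0.16 on the log2 scale. Without either library of animal 201 the sign turned, to 0.02 without its Input and 0.05 without its Positive library.

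**Figure D1:**
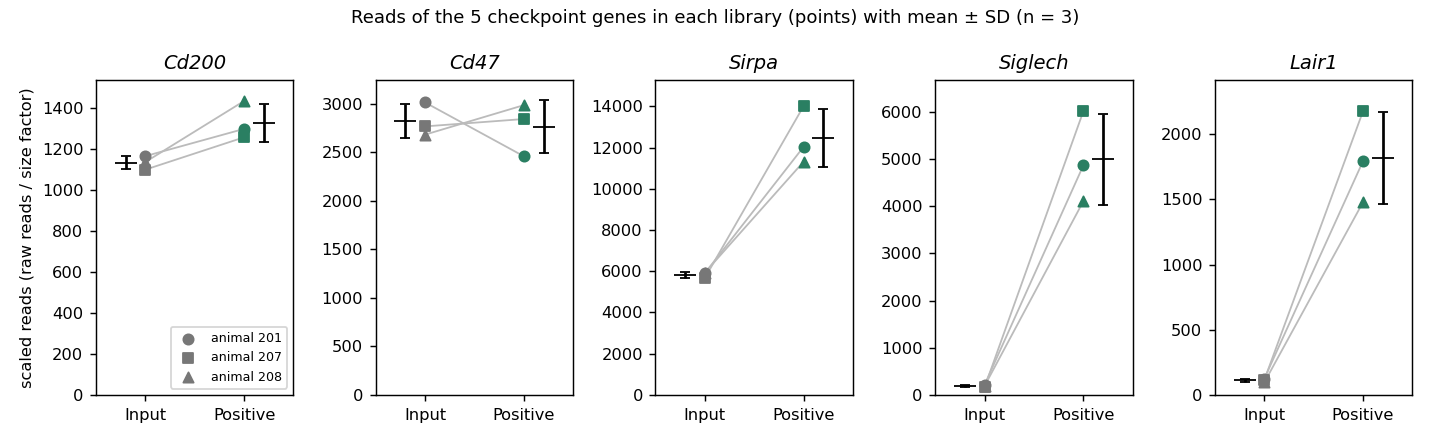
Scaled reads, corrected for library size, of Cd200, Cd47, Sirpa, Siglech and Lair1 in each of 6 libraries, with a marker for each animal, a line joining the fractions of an animal, and bars for the mean ± SD (n = 3). Each vertical axis starts at 0 and has its own scale. The Positive points of Sirpa, Siglech and Lair1 are far above Input, those of Cd200 are just above, and those of Cd47 overlap Input.

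The ratio of Positive to Input within an animal showed how alike the animals were. On the log2 scale with a pseudocount of 1, Siglech had ratios of 4.52, 5.24 and 4.44 in animals 201, 207 and 208, and Lair1 had 3.85, 4.25 and 3.94. For Sirpa the ratios were 1.03, 1.30 and 0.93. All 3 receptors had their highest ratio in animal 207, as did border macrophage markers (medians 3.77, 4.36 and 3.59), homeostatic microglial markers (4.60, 4.85 and 4.37) and the microglial list that the study took from cell sorting (3.56, 3.88 and 3.37), a list that holds Sirpa and Lair1. The ligands had another order of animals. Cd200 had ratios of 0.15, 0.19 and 0.34 and Cd47 of -0.29, 0.04 and 0.15, both highest in animal 208. Neuronal markers had medians of -0.09, -0.05 and 0.15 in the same animals, also highest in animal 208, and endothelial markers medians of 2.15, 1.95 and 1.09, lowest there. The part of either cell type in the ligand values was not tested, and 3 animals are too few for a correlation.

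**Figure D2:**
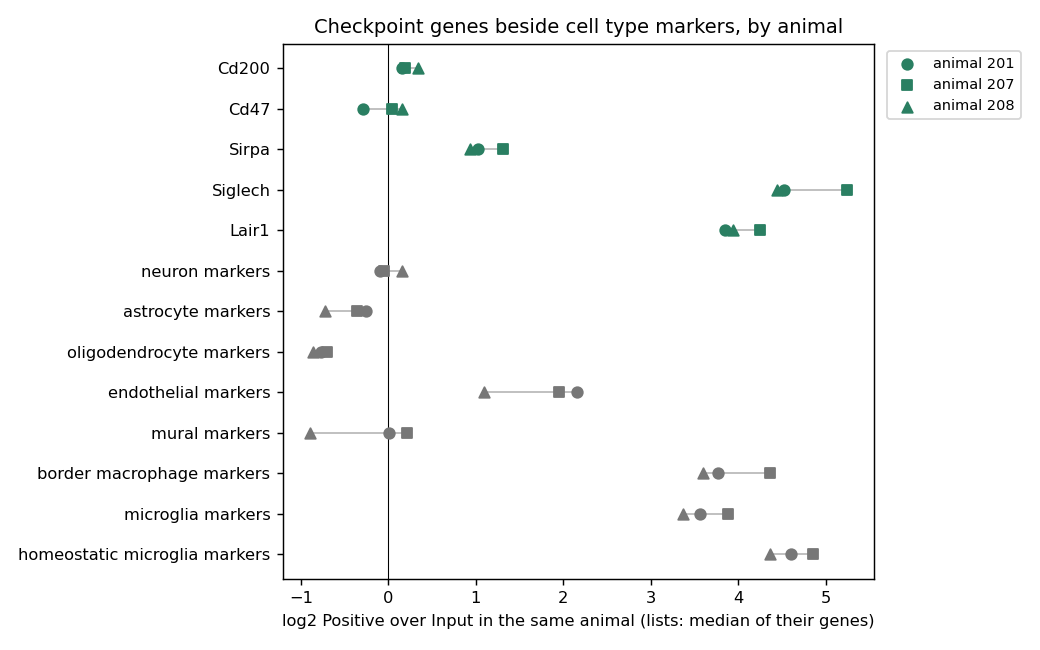
Log2 ratio of Positive to Input within each animal (horizontal axis), with a marker for each of 3 animals, for the 5 checkpoint genes (green) and as the median over the genes of 8 marker lists (grey). Siglech and Lair1 lie among the border macrophage and microglial lists, Cd200 and Cd47 near the neuronal list, and Sirpa between 0.93 and 1.30.

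Markers of other cells that could carry these receptors were read beside them. The 12 border macrophage markers, of which 7 passed the filter only through Positive, summed to 570 to 668 scaled reads in the Input libraries and 6691 to 13057 in the Positive libraries. Much of these sums was Stab1, with 325 to 346 scaled reads in Input and 3419 to 6071 in Positive. Mrc1, the mannose receptor of those macrophages, had a log2 fold change of 4.19 ± 0.277 (SE; edgeR, adjusted p = 7.63e-08). The part of border macrophages in the values of Lair1 and Sirpa was not tested. Sirpa had 1188 scaled reads per kilobase in Input, against 54.9 for Siglech and 14.8 for Lair1, and was 2.14-fold higher in Positive. The part of neurons and of other cells outside the myeloid line in the values of Sirpa was not tested either. For plasmacytoid dendritic cells, the other bearers of Siglec-H, 6 of 10 markers were tested, of which 2 were higher and 1 lower, and Ccr9, Ly6d, Spib and Klk1 were not analysed here. The median log2 fold change of the 6 was 0.08. The highest value was that of Irf8 (4.11 ± 0.151, edgeR adjusted p = 4.10e-10), a transcription factor that microglia also express. Tcf4 and Pacsin1, which had more reads, were not called (edgeR, adjusted p = 0.870 and 0.141). Of 9 monocyte and neutrophil markers 1 was tested, Ly6c2, at 2.1 to 12.2 scaled reads in Input and 20.8 to 24.7 in Positive.

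Levels of different genes were compared only as scaled reads per kilobase of merged exon length (GENCODE M21). In Input the order was Sirpa (1188 ± 29.0), Cd47 (450 ± 27.5), Cd200 (341 ± 9.93), Siglech (54.9 ± 7.88) and Lair1 (14.8 ± 1.95), each as mean ± SD over 3 libraries, and no neighbours in that order overlapped. In Positive it was Sirpa (2536 ± 284), Siglech (1475 ± 284), Cd47 (440 ± 43.4), Cd200 (400 ± 27.9) and Lair1 (243 ± 46.8). Siglech was below both ligands in Input and above both in Positive, and Lair1 was last in either fraction. Cd47 and Cd200 overlapped in Positive, with 392 to 476 against 378 to 432 scaled reads per kilobase, and the other neighbours did not. The exon length of Cd47 is that of a gene model reaching further upstream than the span in the deposited table.

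Within couples, the ratio of receptor to ligand per kilobase was 2.50, 2.62 and 2.82 for Sirpa over Cd47 in the Input libraries and 6.25, 6.29 and 4.84 in the Positive libraries. Mean ratios were 2.65 ± 0.164 and 5.80 ± 0.827 (SD, n = 3), a 2.19-fold step without overlap. Lair1 over Siglech, both receptors, gave 0.274 ± 0.0489 in Input and 0.165 ± 0.00205 in Positive (SD, n = 3). In Positive that ratio was nearly the same in every animal, 0.167, 0.164 and 0.163, although the levels of both genes varied between animals. These ratios were described and not tested.

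**Figure D3:**
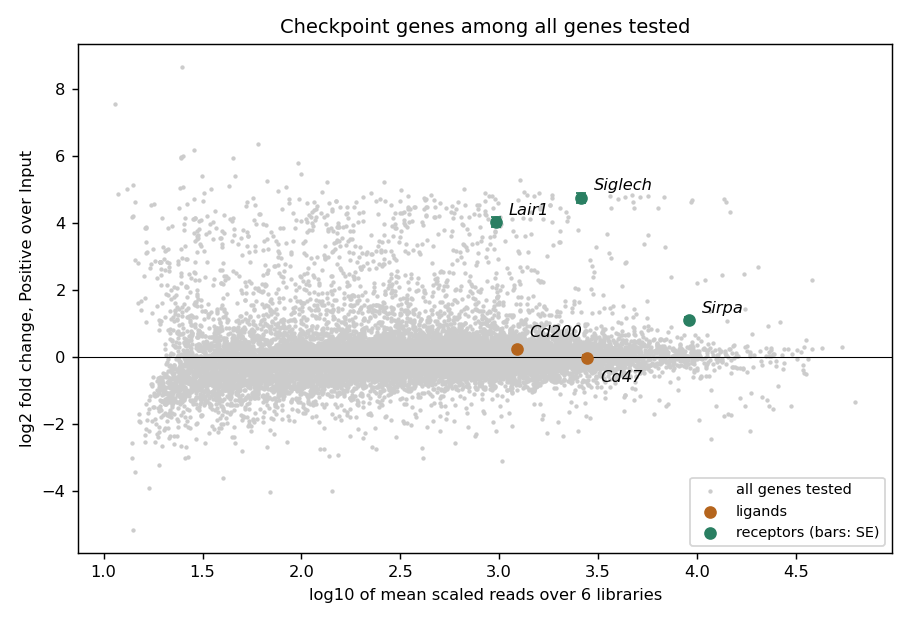
Log2 fold change of Positive over Input (vertical axis) against log10 of the mean scaled reads over 6 libraries (horizontal axis) for 15343 genes tested (grey), with the ligands Cd200 and Cd47 in brown and the receptors Sirpa, Siglech and Lair1 in green, bars showing the SE. Siglech and Lair1 lie in the upper band of genes, Sirpa above the main cloud, and the ligands within it.

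Siglech and Lair1 were both over 5-fold higher in Positive, so the sequence around their transcription starts was set beside that of the ligand genes. Promoter windows from RefSeq (GRCm38.p6, 250 bases before to 50 after the start) matched 4 of the 5 genes, Sirpa not among them. The letters GAGGAA, the purine-rich core recognised by the myeloid factor PU.1, were searched on both strands (TTCCTC on the other), and 28.3% of 32851 windows held them. Below, 100 bases before and 30 after the start are given, 5′ to 3′ on the strand of the gene, with the match in capitals. The stretches are chr7:55768084-55768213 (plus) for Siglech, chr7:4063175-4063304 (minus) for Lair1, chr16:45409024-45409153 (minus) for Cd200 and chr16:49855554-49855683 (plus) for Cd47.
Siglech: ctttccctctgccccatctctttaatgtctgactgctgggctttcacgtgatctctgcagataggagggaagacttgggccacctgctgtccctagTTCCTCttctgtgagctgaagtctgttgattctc
Lair1: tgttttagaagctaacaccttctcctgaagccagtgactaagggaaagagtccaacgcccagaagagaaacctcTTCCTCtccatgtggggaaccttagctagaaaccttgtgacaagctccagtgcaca
Cd200: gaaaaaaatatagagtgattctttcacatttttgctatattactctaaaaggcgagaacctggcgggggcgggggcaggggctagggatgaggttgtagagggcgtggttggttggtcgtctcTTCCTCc
Cd47: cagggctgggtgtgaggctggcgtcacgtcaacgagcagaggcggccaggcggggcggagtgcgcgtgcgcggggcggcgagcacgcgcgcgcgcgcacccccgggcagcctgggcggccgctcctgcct
Siglech held 1 match that began 4 bases before the start, Lair1 1 match 26 bases before it, and Cd200 1 match 24 bases after it. Neither of the 2 windows of Cd47 held one. The longer letters GAGGAAGT, in 3.20% of all windows, were in none of these windows. The Cd47 window had a GC content of 74.0%, against 50.0% for Siglech, 45.3% for Lair1 and 45.0% for Cd200. A match describes letters and is not a binding site.

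The other genes of these pathways were taken from lists of 110 genes, of which 85 were tested. Of these 47 were higher, 13 lower and 25 not called. These counts are no measure of the pathways as a whole, since 15 of the higher genes passed the filter only through Positive, where they are high, and Col17a1, among the lower ones, passed only through Input. Over all genes tested 515 passed through Positive alone and 695 through Input alone. With the filter at 100 scaled reads, 34 pathway genes were higher.

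Of 6 other Siglecs tested, 5 were higher and 1 lower, but 4 of the 5, Siglec1, Cd22, Siglece and Siglecf, passed the filter on low reads only through Positive and could not have been found lower. Cd33 and Mag passed in both fractions. Those higher were Cd33 (3.91 ± 0.150), Siglece (4.23 ± 0.322), Siglecf (4.54 ± 0.471), Cd22 (4.11 ± 0.485) and Siglec1 (3.31 ± 0.320), as log2 fold change ± SE, with edgeR adjusted p-values of at most 1.90e-05. Siglec1, or sialoadhesin, is also in the border macrophage list. The gene that was lower was Mag, the myelin-associated glycoprotein of oligodendrocytes, at -1.83 ± 0.134 (edgeR, adjusted p = 1.99e-07). Cd33 had 131, 109 and 139 scaled reads in Input and 1832, 2289 and 1572 in Positive. The rest had few reads in Input, with means of 4.68 for Siglecf and 4.85 for Cd22.

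Of the adaptors of receptors without an ITIM and their kinase Syk, 3 genes were tested and all 3 were higher. The adaptor gene Hcst, of the same list, was not tested. Tyrobp, which encodes DAP12, the partner of Siglec-H, had 148, 137 and 129 scaled reads in Input and 2772, 3348 and 2175 in Positive, a log2 fold change of 4.32 ± 0.155 (SE; edgeR, adjusted p = 3.46e-10). Fcer1g, the Fc receptor gamma chain, was at 4.27 ± 0.163 and Syk, the kinase that both adaptors recruit, at 3.61 ± 0.202.

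Inhibitory receptors need phosphatases, and of 9 genes of phosphatases, Dok adaptors and partners 8 were higher and 0 lower, of which Dok2 passed the filter only through Positive. The phosphatases recruited by ITIMs differed. Ptpn6 (SHP-1) had 58.1, 56.5 and 54.0 scaled reads in Input and 1832, 1838 and 1278 in Positive, with a log2 fold change of 4.88 ± 0.165 (SE; edgeR, adjusted p = 2.47e-10); it was named after its value was seen. Ptpn11 (SHP-2) had 3560, 3835 and 4119 in Input and 3875, 3920 and 4399 in Positive, overlapping, with a log2 fold change of 0.08 ± 0.085 (edgeR, adjusted p = 0.449). Inpp5d (SHIP-1), an inositol phosphatase downstream of the CD200 receptor and Fc receptors, was at 4.53 ± 0.172. Csk, a kinase that switches off Src-family kinases and binds LAIR-1, was at 1.59 ± 0.126, and Rasa1 (RasGAP), which Dok adaptors recruit below the CD200 receptor, at 0.44 ± 0.093, with edgeR adjusted p-values of 4.37e-07 and 0.00207.

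Of 23 other inhibitory receptors of myeloid cells, 15 were tested and all were called higher. For 10 of them the direction was fixed by the filter, which they passed only through Positive. The other 5 passed in both fractions. Among these, Vsir (VISTA) had a log2 fold change of 4.45 ± 0.143, Havcr2 (TIM-3) of 4.52 ± 0.231 and Fcgr2b, the inhibitory Fc receptor, of 4.50 ± 0.202. Pecam1, which endothelial cells also express, was at 2.16 ± 0.184. Their edgeR adjusted p-values were at most 8.80e-07.

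**Figure D4:**
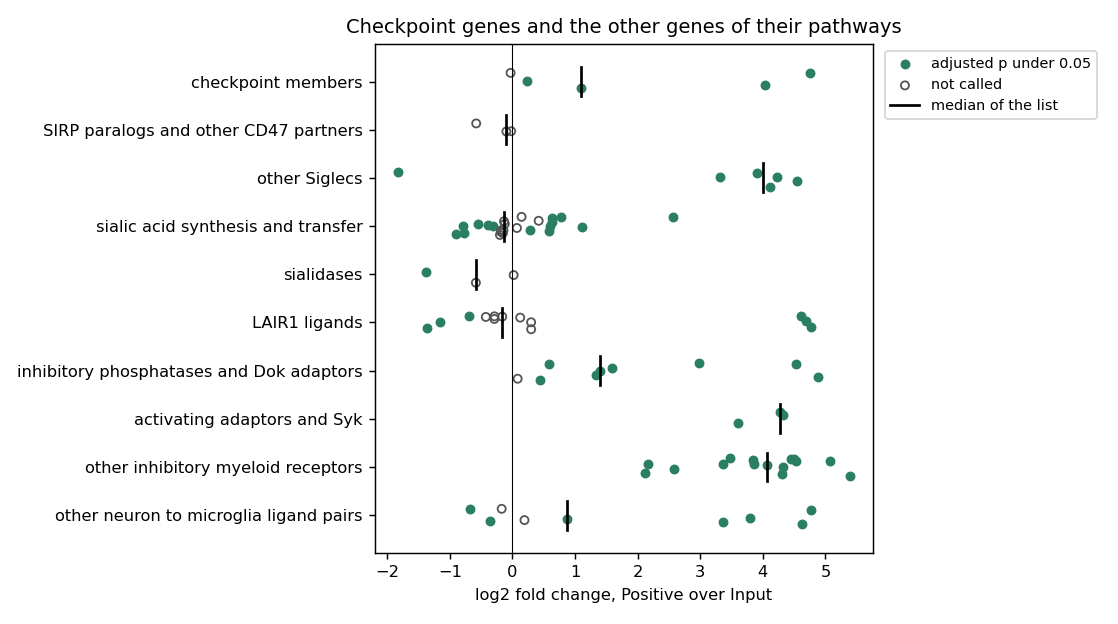
Log2 fold change of Positive over Input (horizontal axis) for each tested gene of the checkpoint members and of 9 pathway lists, filled where the edgeR adjusted p-value was under 0.05 and open where it was not, with a bar at the median of each list. In the lists of other inhibitory myeloid receptors and other Siglecs, 10 of 15 and 4 of 6 genes passed the filter on low reads only through Positive. The list of CD47 partners and that of sialic acid genes have medians just below 0.

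Genes of the ligand side were mixed. Of the CD47 list, Thbs1 and Thbs2, the thrombospondins that bind CD47, and Qpctl, the glutaminyl cyclase that modifies it for SIRP-alpha binding, gave log2 fold changes of -0.02 ± 0.216, -0.58 ± 0.305 and -0.10 ± 0.122, and 0 of 3 passed the edgeR test without the animal as a block. With the animal as a block, Thbs2 passed (-0.62, adjusted p = 0.0228). The sign of Thbs1 turned without the Input library of animal 207 (0.12) and without the Positive library of animal 208 (0.13). The SIRP-beta genes and the 4 paralogs of the CD200 receptor were not analysed here.

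Enzymes that make and attach sialic acid, the sugar read by many Siglecs, were 8 higher, 6 lower and 10 not called among 24 tested (median -0.13). St6galnac5, with the most reads of the list, was at -0.31 ± 0.114 (edgeR, adjusted p = 0.0402), a call lost without any of 4 libraries, the Input libraries of animals 207 and 208 and the Positive libraries of animals 201 and 207, with adjusted p-values from 0.0998 to 0.156, and with limma (adjusted p = 0.109). St3gal5, which makes the ganglioside GM3, gave 0.15 ± 0.071, St3gal2 gave -0.14 ± 0.073 and St8sia3 gave -0.12 ± 0.073, and these 3 did not pass, although St3gal2 and St8sia3 did with scaling to the total count (-0.21, adjusted p = 0.0273, and -0.20, adjusted p = 0.0363, edgeR). Chosen after their values were seen, St3gal6 (2.57 ± 0.184) and Nans (1.10 ± 0.124), the sialic acid synthase, had the highest values of the list. Among sialidases, Neu4 was lower (-1.39 ± 0.183, edgeR adjusted p = 5.22e-05), and Neu1, the lysosomal one, gave 0.02 ± 0.084 and Neu3 -0.58 ± 0.267, neither past the edgeR test, although Neu3 passed with limma (adjusted p = 0.0223).

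LAIR-1 ligands were of 2 kinds. The C1q genes C1qa, C1qb and C1qc were higher, with log2 fold changes of 4.61 ± 0.145, 4.69 ± 0.146 and 4.78 ± 0.150 (SE; edgeR, adjusted p = 1.94e-10 for each). C1qa had 684, 788 and 724 scaled reads in Input and 18440, 21034 and 14241 in Positive, so that this ligand and Lair1 were high in the same fraction. None of the collagens was higher among those tested. Col1a2 (-1.16 ± 0.220), Col1a1 (-0.69 ± 0.255) and Col17a1 (-1.37 ± 0.408), named after their values were seen, were lower. Of these, Col17a1 passed the filter on low reads only through Input and could not have been found higher. Over the whole list of LAIR-1 ligands, 13 genes were tested, of which 3 were higher, 3 lower and 7 not called. Col4a2, of basement membranes, gave 0.30 ± 0.145 (edgeR, adjusted p = 0.108). Col4a2 passed with the animal as a block (0.28, adjusted p = 0.0281) and without the Positive library of animal 208 (0.48, adjusted p = 0.000888). The calls of Col1a1 and Col17a1 did not hold without single libraries. Col1a1 did not pass without the Input library of animal 207 (-0.38, edgeR adjusted p = 0.254), the Positive library of animal 201 (-0.66, 0.0846) or that of animal 208 (-0.47, 0.105). Col17a1 did not pass without the Input library of animal 201 (-1.23, 0.0588). Over all 13 alternative fits the call of Col1a1 was lost in 4. Mural markers, of cells that make collagen, had medians of 0.01, 0.21 and -0.90 in animals 201, 207 and 208, and their part in these values was not tested.

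Of 9 tested genes of other couples between neurons and microglia, all of which passed the filter in both fractions, 5 were higher, 2 lower and 2 not called. Cx3cr1, the fractalkine receptor whose promoter drives Cre, was at 4.77 ± 0.137 and Csf1r, the receptor for CSF1 and IL-34, at 4.63 ± 0.140 (SE; edgeR, adjusted p = 1.94e-10 for each). The ligands differed among themselves. Cx3cl1, the fractalkine of neurons, was at 0.19 ± 0.094 (edgeR, adjusted p = 0.112) and Il34 was lower, at -0.36 ± 0.099 (edgeR, adjusted p = 0.00937). Lgals9, galectin-9, a ligand of TIM-3, was higher at 3.80 ± 0.146 and Cd274, PD-L1, at 0.87 ± 0.229 (edgeR, adjusted p = 5.17e-10 and 0.00759), both named after their values were seen. In the same list Cd24a was lower and Csf1 was not called (edgeR, adjusted p = 0.0372 and 0.259). The Cre insertion of this line disrupts the Cx3cr1 allele that carries it, so the level of Cx3cr1 is not that of an unmodified gene.

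The genes with the most similar pattern to each member were taken by the distance between log2 profiles over the 6 libraries, each centred on its own mean, among the 13587 genes whose mean reached 50 scaled reads. For Siglech they were Itgb2 (distance 0.144), an integrin chain of leukocytes, and Tmem119 (0.165). For Lair1 they were Hpgds (0.0970), a prostaglandin D synthase, and Csf2rb (0.161), a cytokine receptor chain. Sirpa was nearest to Sema4d (0.0810), a semaphorin, and Ccnd1 (0.0870), cyclin D1. Cd200 was nearest to Akap6 (0.0390) and Abr (0.0480), and Cd47 to Sumo2 (0.0650) and the GABA receptor subunit gene Gabra4 (0.0700).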

How the data were processed

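The fraction named in the labels of a sample gave its group. The authors aligned paired reads with Strand NGS to mm10 using strand and deposited expected counts (raw reads per gene, not all whole numbers) and log2 values after DESeq normalization, relative to a baseline per gene. Between 18.5% and 25.0% of the expected counts per library were whole (tolerance 0.001), and 64.2% to 69.0% of whole values under 60 were even, so a fragment may have been counted by both mates, which was not settled. All 15388 genes reached 20 raw reads in each of the 3 libraries of a fraction. Asking for more than 20 scaled reads in the same way dropped 45 genes and left 15343.

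Expected counts were rounded and tested in R 4.3.3 with edgeR 4.0.16 (glmQLFit, glmQLFTest, RLE scaling), two-sided and, as the study did, unpaired, with Benjamini-Hochberg adjustment over all genes and a threshold of 0.05. The SE was derived from the F statistic. Members, lists and the naming rule were chosen with earlier results of these data known. Named genes were the members, all tested CD47 partners, other Siglecs and activating adaptors, genes of highest mean in each other list (up to 4 for pathways, up to 3 for markers), and the 2 genes nearest to each member. The study's own marker lists came from its supplement. Per the labels the fractions of an animal are paired, and deviations from the fraction means correlated at 0.27, 0.09 and 0.15 in animals 201, 207 and 208. Alternatives were the animal as a block, TMM and total count scaling, no filter and a filter at 100 scaled reads, DESeq2 1.42.0, limma 3.58.1 on the deposited log2 values, pseudocounts of 0.5 and 5, and leaving out each library. Tested on simulated data for Positive against Input (5 simulations over 15343 genes with 200 changed genes each), edgeR recovered 94.6% of changed genes, and 7.17% of calls were false. The simulated libraries were drawn independently, without an effect of the animal and with larger changes than that of Cd200. In the data 46.0% of genes were called, so these rates need not hold there.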

Additional observations from a re-analysis of the deposited data

How the results depend on the processing

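Siglech, Lair1 and Sirpa kept their direction and call in all 13 alternative fits, and without single libraries their log2 fold changes ran from 4.59 to 4.87, 3.88 to 4.16 and 1.00 to 1.16. Cd200 passed in 7 of 13. It did not pass with limma on deposited values (0.211, adjusted p = 0.108), with total count scaling (0.152, adjusted p = 0.135) or without 4 of the single libraries, where the range over all 6 left-out libraries was 0.174 to 0.269, with edgeR adjusted p-values from 0.0327 to 0.120. The cause was not tested. Total count scaling moved the median of all genes from -0.01 to -0.09. For Cd47 the range without single libraries was -0.088 to 0.046, and the sign turned without either library of animal 201 (0.021 and 0.046). Other genes were followed here where they were given with a log2 fold change or as a nearest gene. Among these the sign turned, in each case without a call, for Thbs1 (0.119 and 0.127, in a range from -0.124 to 0.127), Neu1 (-0.022 and -0.026 without a library, -0.059 with total count scaling), Sumo2 (0.011 and 0.058, range -0.096 to 0.058) and Gabra4 (0.038 and 0.081 without a library, range -0.068 to 0.081, 0.002 with TMM). With the replicate block (the animal), the log2 fold changes of Cd200, Cd47, Sirpa, Siglech and Lair1 were 0.23, -0.03, 1.09, 4.74 and 4.02. Besides Thbs2 and Col4a2 the paired fit changed no call of a gene followed here. Of the 2 nearest genes, 1 was shared with the main choice for Sirpa and Lair1 at a pseudocount of 5 and for Siglech at 0.5. Over the alternatives 34 to 48 pathway genes were higher and 9 to 16 lower, and all-gene calls ran from 5539 to 7567. Depth (14879734 to 17757918 reads) limits genes with few Input reads, such as Cd22 and Siglecf, more than the members.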
